A study of Mus musculus with 30 samples.

Results

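Genes of the cardiac cushion and of mesenchymal matrix were followed in the embryonic mouse heart after loss of Dgcr8: Lum, Dcn, Postn, Col1a1, Col1a2, Col3a1, Fn1, Vcan, Has2 and Snai1. They were chosen by symbol, as 10 of the 20842 genes that had a named probe set of their own, and all 10 were measured in both tissues. The study hybridised RNA of E9.5 embryos (embryonic day 9.5; 19 to 21 somites on each side) to 16 arrays for mRNA and 14 for miRNA. The tissues were the anterior second heart field (aSHF), whose progenitors lie dorsal to the early heart, and the combined outflow tract and right ventricle (OFT-RV). Mutant embryos were Mef2c-AHF-Cre/+; Dgcr8 f/f, in which a Mef2c enhancer drives Cre in aSHF progenitors and the cells that descend from them, so that the neural crest, the epicardium and blood in the dissected pieces keep the floxed gene. Wild-type embryos were Dgcr8 f/+ with no Cre labelled, so both genotypes carried a floxed allele, and the effect of Cre alone was not measured. Tissue of one genotype was pooled over at least 5 litters for RNA extraction. Each mRNA group had 4 arrays, and each miRNA group had 4 arrays in aSHF and 3 in OFT-RV, all labelled as biological replicates. The small number of arrays limits the precision.

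At this stage the myocardium of the outflow tract and of the atrioventricular canal secretes a swollen matrix, the cardiac jelly, between itself and the endocardium. Hyaluronan made by hyaluronan synthases and the proteoglycan versican give this matrix its volume. Under BMP and TGF-beta signals, endocardial cells then lose their junctions, a step in which Snail factors repress cadherin genes, and enter the jelly as mesenchyme. Fibronectin is laid down early, whereas fibrillar collagens, periostin and the small leucine-rich proteoglycans decorin and lumican accumulate as the mesenchyme matures into valve and connective tissue.

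Dgcr8, the targeted gene, makes the protein that recognises primary miRNA transcripts for cleavage by Drosha. Its level was 8.11 ± 0.11 (log2, SD, n = 4) in wild-type OFT-RV and 7.70 ± 0.07 in mutant OFT-RV, a difference of -0.41 (SE 0.06, limma adjusted p = 0.00753). In aSHF the difference was -0.12 (SE 0.05, adjusted p = 0.978). The dissections were checked against markers picked after earlier results were known. Tbx1, a gene of the progenitor field, had a mean of 10.7 in wild-type aSHF, where the array medians over all probe sets lay between 7.47 and 7.54. In wild-type OFT-RV it had a mean of 6.13, at the array medians of 6.13 to 6.19 there. The sarcomere genes Tnnt2 and Myh6 were at 13 and 11.7 in wild-type OFT-RV. In wild-type aSHF Tnnt2 was at 10.7, Myh6 at 8.50 and the sarcomere gene Actc1 at 12.5, also above the array medians there. Isl1, another gene of the progenitor field, was at 10.4 in wild-type aSHF and at 8.23 in wild-type OFT-RV, above the array medians of each. These markers thus do not show a full separation of the tissues. A list of 9 primitive erythroid genes averaged 9.27 to 9.67 over the OFT-RV arrays and 9.83 to 10.5 over the aSHF arrays, so blood RNA was present in both tissues. The tissues had been normalized separately, so their levels are not compared with each other. One array, OFT-RV mutant replicate 4, stood apart from the others in the matrix genes. Most OFT-RV differences of matrix genes are therefore given with and without it. Other OFT-RV mRNA results include it unless stated.

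No matrix gene passed the test for a difference between mutant and wild-type in either tissue. In OFT-RV 0 of the 10 genes had an adjusted p under 0.05, where 0.446% of all 20842 genes did (0.432% higher and 0.0144% lower in mutants). In aSHF the count was also 0 of 10, where 0.178% of all genes did. At an unadjusted limma p under 0.05 there was 1 of the 10 in each tissue, Snai1 in OFT-RV and Lum in aSHF, beside 5.83% and 2.66% of all genes. The arrays of both genotypes overlapped for every matrix gene in both tissues, while 3.59% of all genes in OFT-RV and 1.62% in aSHF did not overlap. In pooled tissue of this kind, fewer cells of a type and less RNA per cell cannot be told apart.

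**Figure D1:**
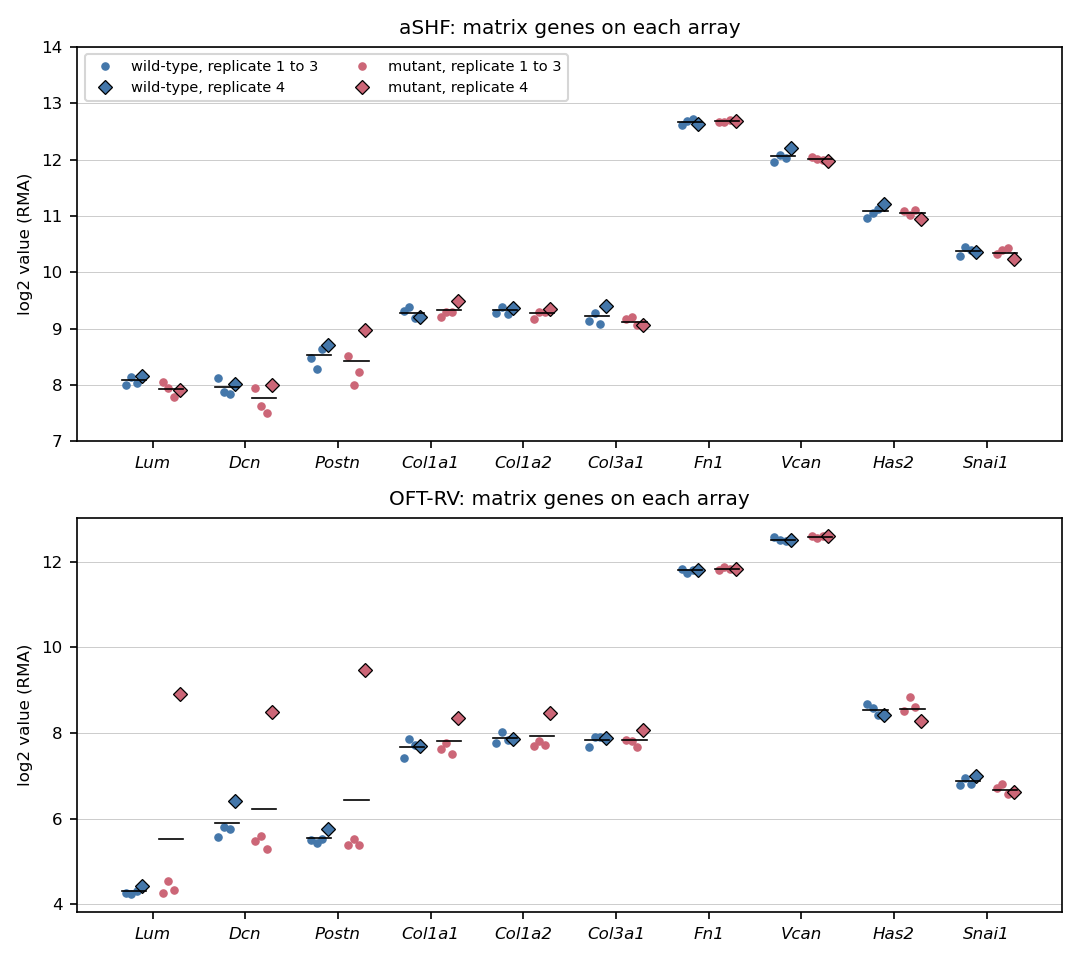
Log2 values (RMA) of the 10 matrix genes on each array, aSHF in the upper and OFT-RV in the lower panel, with wild-type arrays in blue, mutant arrays in red, replicate 4 as outlined diamonds and bars at the group means. In OFT-RV the red diamonds of Lum, Dcn and Postn lie at 8.92, 8.48 and 9.48, far above the other arrays of these genes, whereas Fn1 and Vcan form narrow bands on all arrays.

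Lum encodes lumican and Dcn encodes decorin, small leucine-rich proteoglycans that bind collagen fibrils and regulate their assembly. In wild-type OFT-RV, Lum was at 4.26, 4.23, 4.31 and 4.43 (log2), below the first quartile of all probe sets on these arrays, which lay at 4.85 to 4.91. In mutant OFT-RV, Lum was at 4.27, 4.56 and 4.33 on replicates 1 to 3 and at 8.92 on replicate 4. The gene was thus dim on 7 of the 8 arrays and bright on 1. The mean difference over all 8 arrays was 1.21 (SE 0.82, 95% interval -0.59 to 3.01, adjusted p = 0.965), and an exact two-sided permutation test over the arrays gave p = 0.20. Without mutant replicate 4 the difference was 0.08 (SE 0.08).

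Dcn was at 5.57, 5.81, 5.76 and 6.42 in wild-type OFT-RV, with replicate 4 the highest. The mutant arrays were at 5.48, 5.61, 5.30 and 8.48. Apart from mutant replicate 4, the mutant values lay at the lower end of the wild-type range or below it. The difference was 0.33 over all arrays (SE 0.56, 95% interval -0.91 to 1.56, adjusted p = 0.984). Without mutant replicate 4 its sign turned, to -0.43 (SE 0.16, 95% interval -0.79 to -0.06). That value had an unadjusted limma p of 0.0251 and an adjusted p of 0.915, so it did not pass either.

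Postn encodes periostin, a secreted matricellular protein of maturing cushions and valves. Its wild-type OFT-RV values were 5.51, 5.44, 5.53 and 5.75, and its mutant values were 5.38, 5.53, 5.39 and 9.48. As for Lum and Dcn, 1 mutant array was far above all the others, and the remaining arrays of both genotypes overlapped. The mean difference was 0.89 (SE 0.73, 95% interval -0.72 to 2.5, adjusted p = 0.966), and it was -0.12 (SE 0.08) without mutant replicate 4. Among the 4 wild-type OFT-RV arrays, replicate 4 was the highest for Lum, Dcn and Postn alike.

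RefSeq tables for GRCm38.p6 held promoters for 5 of the 10 genes. Those shown are the windows of Postn and Col1a2, which stood high on the array that differs, and of Snai1, which had the lowest p in OFT-RV. Each is the 250 bases before the transcript start on the gene's strand. Capitals mark matches to the TATA box (TATAAA), to the CCAAT box (CCAAT) and to the E-box that Snail factors bind (CAGGTG), each searched on both strands. Of 32817 promoters in the table, 12.4% held the TATA letters in this window, 33.8% the CCAAT letters and 17.2% the E-box.
Postn, chr3:54360857-54361106, plus strand: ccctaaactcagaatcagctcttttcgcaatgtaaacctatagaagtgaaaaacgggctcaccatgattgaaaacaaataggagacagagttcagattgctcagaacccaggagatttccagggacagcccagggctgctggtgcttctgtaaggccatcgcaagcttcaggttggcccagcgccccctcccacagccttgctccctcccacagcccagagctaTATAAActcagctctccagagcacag
Col1a2, chr6:4505368-4505617, plus strand: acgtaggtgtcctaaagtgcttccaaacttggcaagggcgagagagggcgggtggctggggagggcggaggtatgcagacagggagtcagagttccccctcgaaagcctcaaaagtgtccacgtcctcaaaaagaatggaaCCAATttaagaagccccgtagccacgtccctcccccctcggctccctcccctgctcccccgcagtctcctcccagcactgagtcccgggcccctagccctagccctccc
Snai1, chr2:167537945-167538194, plus strand: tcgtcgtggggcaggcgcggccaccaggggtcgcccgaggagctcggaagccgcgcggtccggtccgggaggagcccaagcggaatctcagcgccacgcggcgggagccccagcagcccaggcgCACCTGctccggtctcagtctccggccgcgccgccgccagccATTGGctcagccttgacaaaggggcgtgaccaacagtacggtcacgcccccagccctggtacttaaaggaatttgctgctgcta
The Postn window shown held a TATA box that begins at position -26, where -1 is the last base before the start, and a second listed Postn start held none of the 3 motifs. Col1a2 had a CCAAT box beginning at -109, and Snai1 had a CCAAT box on the other strand beginning at -84 and the E-box, as CACCTG, beginning at -126. Such matches describe the letters of the windows and show no binding.

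Col1a1 and Col1a2 encode the chains of type I collagen, and Col3a1 encodes type III collagen, the fibrillar collagens of connective tissue. Col1a1 was at 7.41, 7.85, 7.71 and 7.69 in wild-type OFT-RV and at 7.63, 7.76, 7.51 and 8.35 in mutant OFT-RV. Col1a2, whose promoter is printed above, was at 7.77, 8.04, 7.84 and 7.86 and at 7.70, 7.82, 7.73 and 8.48. Both type I chains were highest on mutant replicate 4, by less than Lum, Dcn and Postn were. Col3a1 was at 7.69, 7.90, 7.92 and 7.89 in the wild type and at 7.83, 7.80, 7.68 and 8.08 in the mutants. The mean differences were 0.14 (SE 0.15) for Col1a1, 0.06 (SE 0.14) for Col1a2 and 0.00 (SE 0.08) for Col3a1. Without mutant replicate 4 all 3 were below 0, at -0.03, -0.12 and -0.07, with SE between 0.07 and 0.10.

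Fn1 encodes fibronectin, Vcan the large hyaluronan-binding proteoglycan versican and Has2 the main hyaluronan synthase of the embryonic heart. These genes of the early jelly had no high value on mutant replicate 4. Fn1 was between 11.75 and 11.82 in wild-type and between 11.81 and 11.88 in mutant OFT-RV, a difference of 0.04 (SE 0.04). Vcan was at 12.57, 12.51, 12.47 and 12.50 in the wild type and at 12.59, 12.55, 12.60 and 12.59 in the mutants. For Vcan 3 of the 4 mutant arrays were above every wild-type array, with a difference of 0.07 (SE 0.04, adjusted p = 0.953, exact two-sided permutation p = 0.0571), and its 95% interval reached from -0.02 to 0.17. Has2 was at 8.67, 8.58, 8.43 and 8.43 in the wild type and at 8.52, 8.85, 8.61 and 8.28 in the mutants, with mutant replicate 4 the lowest of the 8 arrays. Its difference was 0.04 (SE 0.10), and 0.13 (SE 0.09) without that array.

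Snai1 encodes the zinc-finger repressor Snail, which acts in the transition of epithelial and endocardial cells to mesenchyme. It was at 6.79, 6.95, 6.81 and 7.0 in wild-type OFT-RV and at 6.72, 6.81, 6.57 and 6.62 in mutant OFT-RV. Of the 4 mutant arrays, 3 were below every wild-type array. The difference was -0.21 (SE 0.07, 95% interval -0.36 to -0.06), the only one of the 10 below 0 over all arrays. The exact two-sided permutation test gave p = 0.0571, where 0.0286 is the smallest p that 4 against 4 arrays allow, and the unadjusted limma p was 0.00987. Adjusted over all genes it was 0.523, so Snai1 did not pass. It was -0.19 (SE 0.07) without mutant replicate 4. In the authors' deposited table the p of Snai1 in OFT-RV was 0.0174 and the adjusted p 0.871, for the same change of -0.21.

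Over the 10 genes in OFT-RV, 9 differences were above 0 and the median was 0.06, where the median of all genes was -0.01 and 57.1% of all genes were lower. Without mutant replicate 4 there were 4 above 0, and the median was -0.05. The upward count of the group therefore depended on 1 array, as the plot of changes with intervals shows. Across all 8 arrays the 95% intervals ran from -0.91 for Dcn at the lowest to 3.01 for Lum at the highest. Changes of several-fold in Lum, Dcn and Postn thus lay within their intervals when that array was kept. Without it the intervals were -0.09 to 0.25 for Lum, -0.30 to 0.05 for Postn and -0.79 to -0.06 for Dcn.

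**Figure D2:**
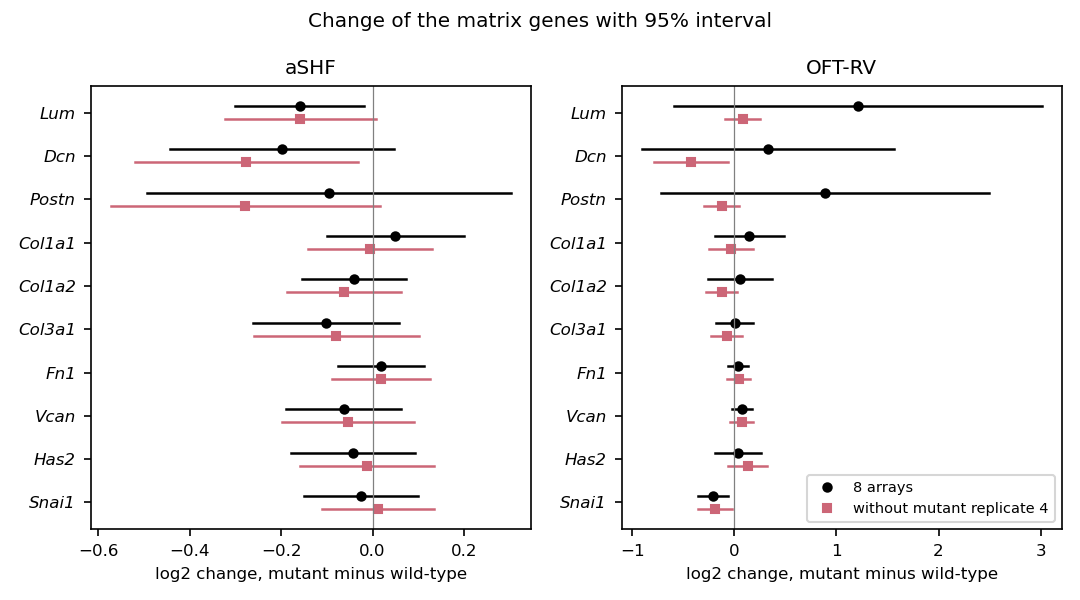
Change of each matrix gene, as mutant minus wild-type on the log2 scale, with the 95% interval from limma, for 8 arrays (black circles) and for 7 arrays without mutant replicate 4 (red squares), on separate horizontal scales for the 2 tissues. In OFT-RV the intervals of Lum, Postn and Dcn are wide with that array and narrow without it, while those of Fn1, Vcan and Snai1 stay close to each other.

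The values on OFT-RV mutant replicate 4 were set against the median of mutant replicates 1 to 3, as a description with no test, since this array was singled out by its values. Lum was higher there by 4.59 on the log2 scale (24.0-fold), Postn by 4.09 (17.0-fold) and Dcn by 3.0 (8.0-fold). Of all 20842 genes, these were the 3 that stood furthest above on this array, in the order Lum, Postn, Dcn. Col1a2 and Col1a1 followed at 0.74 and 0.71, ranks 23 and 28, and Col3a1 at 0.27 was rank 295. The other 4 did not stand high. Fn1 and Vcan were both at 0.00, Snai1 at -0.10 and Has2 at -0.33, which put Has2 at rank 20746 of 20842. The excess on this array was thus largest for the small proteoglycans and periostin, smaller for the fibrillar collagens and absent for the genes of the early jelly.

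**Figure D3:**
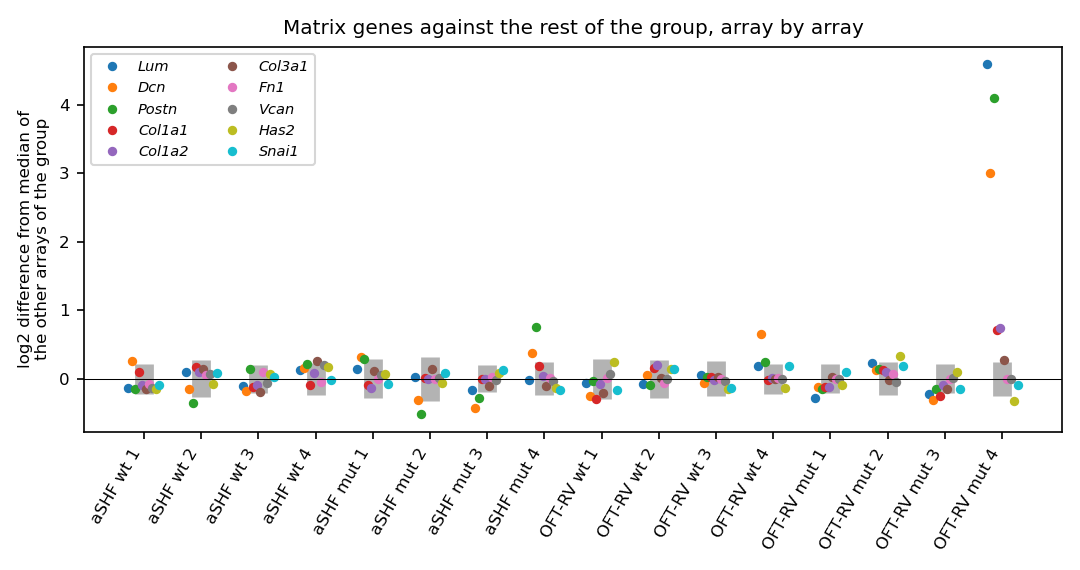
Difference of each of the 10 matrix genes on each of the 16 mRNA arrays from the median of the other arrays of its group (log2), with grey bars at 2 SD of the same quantity over all genes on either side of 0. On OFT-RV mutant replicate 4, Lum, Postn and Dcn lie at 4.59, 4.09 and 3.0, and on aSHF mutant replicate 4 Postn lies at 0.75.

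Few other genes stood apart with them on that array. Only 7 genes, 0.0336% of all, stood over 1 above the median of the other mutant arrays, and 4 stood over 1 below it. Besides Lum, Postn and Dcn the 7 were Prss35 (1.65), which encodes a secreted protease-like protein, Xist (1.62), Bnc1 (1.25), a zinc-finger gene of mesothelium, and the orphan receptor gene Gpr50 (1.03). The 4 that were lower were the Y-linked Uty, Eif2s3y, Ddx3y and Kdm5d, between -1.66 and -1.19. Xist is transcribed in female cells and the Y-linked genes in male cells, and both varied among other pools as well. Xist was at 11.3 on OFT-RV mutant replicate 4 and at 11.5 on OFT-RV wild-type replicate 1, and on the latter Lum was at 4.26, Dcn at 5.57 and Postn at 5.51. The part of the sex make-up of the pools in the result was not tested.

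Further genes among the 20 that stood furthest above were AU018091 (0.98), Cbln1 (0.95), Enpp1 (0.95), Ndrg1 (0.95) and Lrp2 (0.88). Snai2, the Slug repressor related to Snai1, was higher by 0.86, at 7.92 against 6.82 to 7.34 on the other mutant arrays. Smoc2, a secreted matrix protein gene, was higher by 0.83, Lrrn4 by 0.81 and Upk3b, a gene of mesothelium, by 0.80. The 4 others of the 20 were miRNA genes, Mir376a, Mir495, Mir411 and Mir329, at 0.78 to 0.97. Among the 10 that stood furthest below, the Y-linked genes were followed by Prrx1, a homeobox gene of mesenchyme (-0.93), and by Abra, Rgs5, Amph, Nr1h5 and Nr2f1, between -0.84 and -0.68.

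The array did not differ in its overall distribution. Its median over all probe sets was 6.17, within the 6.13 to 6.19 of the OFT-RV arrays, and its correlation with the mean of its group was 0.998, where those of the 16 arrays were 0.997 to 0.999. Its label was checked with genes that passed in a fit without it. Of 79 genes that were higher in mutants in that fit, 78 were above every wild-type array on it, and of 4 that were lower, 3 were below.

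Markers of other tissues that such a dissection could hold were read on this array, and their part in the result was not tested. Of 9 genes of epicardium and proepicardium 7 were above the median of the other mutant arrays, with Bnc1, Upk3b and Upk1b (0.48) the highest. The median of this list was 0.06, where that of all genes was -0.01. Among their defining genes Wt1 was at -0.07, Tbx18 at 0.06 and Tcf21 at -0.08. The mean of this list was 6.21 on the array, the highest of the 8 OFT-RV arrays, and 5.90 to 6.13 on the other 7. Of 13 connective tissue fibroblast genes none stood over 0.5 above, the highest being Thy1 at 0.49 and Pdgfra at 0.38. Genes of cartilage and bone, skin epidermis, immune cells, yolk sac and liver, smooth muscle and cardiomyocytes all lay between -0.35 and 0.20. Of 12 genes of endothelium and endocardium 0 were above the median of the other mutant arrays. Their mean was 8.27 on the array, the lowest of the 8 OFT-RV arrays, and 8.33 to 8.41 on the other 7. Neural crest genes lay between -0.15 and 0.37, and neural genes between -0.29 and 0.03 with a median of -0.14. Of 9 genes of decidua and placenta 8 were measured, and they lay between -0.48 and 0.09.

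The lists of other matrix genes were read on the same array. Of 30 further structural matrix genes, 0 stood over 0.5 above the median of the other mutant arrays. The highest was Col5a2, which encodes a chain of type V collagen and lies next to Col3a1 on chromosome 1, at 0.28. The lowest was Bgn, which encodes the small proteoglycan biglycan, at -0.25. Of 25 genes of matrix assembly and turnover the highest was Adamts2, the procollagen peptidase, at 0.43. Of 18 matrix receptors the highest was Itga1, a collagen-binding integrin, at 0.51. Lum and Dcn are neighbours on chromosome 10, and the next genes beyond Lum, the related proteoglycan genes Kera and Epyc, were at 0.00 and 0.01 on this array.

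**Figure D4:**
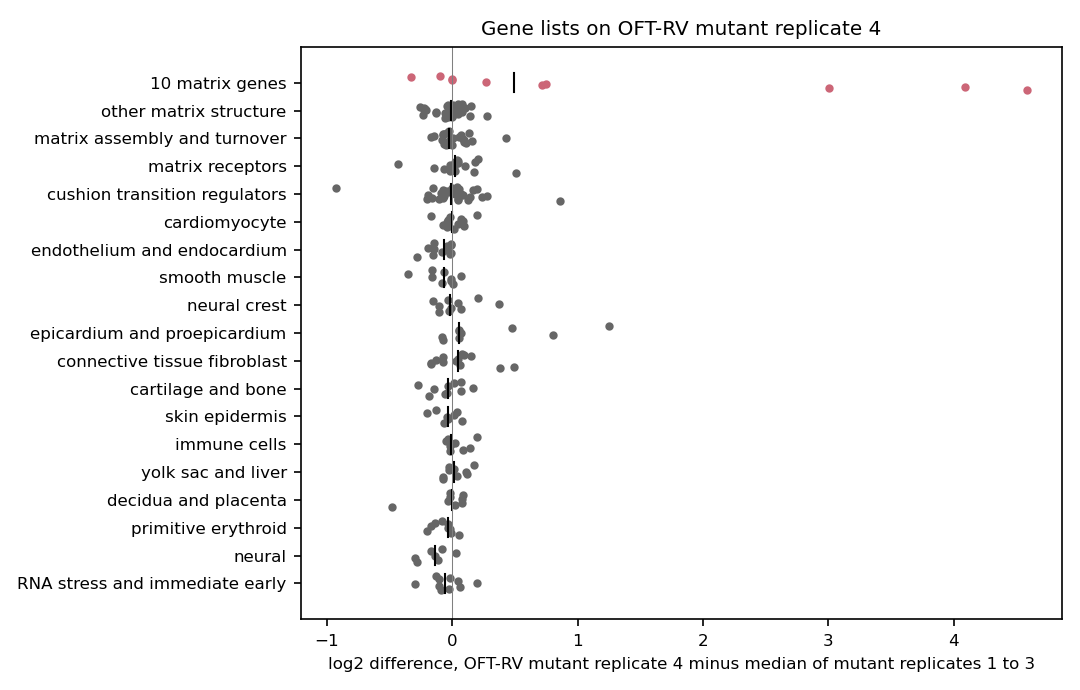
Difference of single genes on OFT-RV mutant replicate 4 from the median of mutant replicates 1 to 3 (log2), by gene list, with a vertical tick at the median of each list. The 10 matrix genes (red) reach 4.59, whereas the 30 other structural matrix genes lie between -0.25 and 0.28.

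In aSHF the matrix genes were more even across arrays. Of the 10 genes, 8 were lower in mutants and 2 higher, with a median difference of -0.05, where 42.1% of all genes were lower and the median of all was 0.01. Lum was at 8.0, 8.14, 8.04 and 8.16 in wild-type aSHF and at 8.06, 7.94, 7.78 and 7.92 in mutant aSHF, so that 3 of 4 mutant arrays were below every wild-type array. The difference was -0.16 (SE 0.06, 95% interval -0.30 to -0.02), with an unadjusted limma p of 0.0309, an adjusted p of 0.978 and an exact two-sided permutation p of 0.0857.

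Dcn and Postn varied most in aSHF. Dcn was at 8.13, 7.88, 7.84 and 8.03 in the wild type and at 7.94, 7.63, 7.51 and 8.0 in the mutants, a difference of -0.20 (SE 0.11, adjusted p = 0.978). Postn was at 8.49, 8.29, 8.63 and 8.70 in the wild type and at 8.51, 8.0, 8.23 and 8.98 in the mutants. For Postn the mutant arrays held both the lowest and the highest of the 8 values, and the difference was -0.10 (SE 0.18, 95% interval -0.49 to 0.30). Mutant replicate 4 was the highest mutant array for Dcn, Postn, Col1a1 and Col1a2 in aSHF too. Postn lay 0.75 and Dcn 0.38 above the median of the other 3, ranks 16 and 125 of all genes, with Lum at -0.02. Col3a1, Vcan, Has2 and Snai1 were lowest on it among the aSHF mutant arrays. Cardiomyocyte genes also stood high on it, with a list mean of 9.53 against 9.04 to 9.45 on the other aSHF arrays. They averaged 0.43 above the median of the other aSHF mutant arrays. On OFT-RV mutant replicate 4 the same average was 0.01. The part of cardiomyocyte RNA in the aSHF matrix values was not tested. Whether arrays of the 2 tissues with one number shared embryos is not stated in the labels. Xist on mutant replicates 1 to 4 was at 10.2, 10.7, 11.9 and 11.9 in aSHF and at 9.35, 9.65, 10.8 and 11.3 in OFT-RV, so replicates 3 and 4 were the higher ones in both tissues. Wild-type replicate 1 had the highest Xist and the lowest Uty of the wild-type arrays in both tissues.

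The remaining genes hardly differed in aSHF. Col1a1 ranged from 9.19 to 9.49 over the 8 arrays, Col1a2 from 9.17 to 9.38 and Col3a1 from 9.06 to 9.40. Their differences were 0.05 (SE 0.07), -0.04 (SE 0.05) and -0.10 (SE 0.07). Fn1 at 12.61 to 12.73 differed by 0.02 (SE 0.04), Vcan at 11.96 to 12.21 by -0.06 (SE 0.06), Has2 at 10.95 to 11.22 by -0.04 (SE 0.06) and Snai1 at 10.23 to 10.45 by -0.03 (SE 0.06). Outside Lum, Dcn and Postn all 95% intervals in aSHF lay between -0.26 and 0.20.

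The change in OFT-RV was set against the change in aSHF in one fit of 4 groups, with the limit that the tissues were normalized separately. The fit also took the arrays of both tissues as independent, whereas arrays with one number may have shared embryos. The difference of changes passed for 0 of the 10 genes and for 0.211% of all genes. It was 1.37 (SE 0.94) for Lum, 0.98 (SE 0.86) for Postn and 0.53 (SE 0.65) for Dcn. Without OFT-RV mutant replicate 4 it turned to -0.03 for Postn and -0.23 for Dcn. Over all arrays it was -0.18 for Snai1 (SE 0.09, limma p 0.0598 before adjustment). For Vcan it was 0.14 (SE 0.07, limma p 0.0650 before adjustment), with an adjusted p of 0.897 for both genes.

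Genes that work with the 10 were read from lists. None of 30 other structural matrix genes, 25 genes of matrix assembly and turnover, 18 matrix receptors and 30 regulators of the cushion transition passed in either tissue, by limma with adjustment over all genes. The counts with an unadjusted p under 0.05 were 1, 2, 3 and 1 in OFT-RV and 1, 1, 1 and 0 in aSHF. The medians of the 4 lists in OFT-RV were -0.01, -0.02, 0.01 and -0.04, beside -0.01 for all genes. Among the receptors, Erbb3, the neuregulin receptor of cushion mesenchyme and neural crest, differed by -0.28 in OFT-RV (SE 0.07, adjusted p = 0.242). Itga4, an integrin chain that binds fibronectin, differed by -0.54 (SE 0.15, adjusted p = 0.379). The integrin chains Itgb3 and Itga5 went the other way, by 0.13 (SE 0.06, adjusted p = 0.803) and 0.08 (SE 0.05, adjusted p = 0.953). Among the regulators, Twist1, a transcription factor of mesenchyme, differed by -0.29 (SE 0.08, adjusted p = 0.384). Tgfb2 differed by 0.10 (SE 0.05), Prrx1 by -0.35 (SE 0.20) and Nfatc1 by -0.09 (SE 0.06). Without mutant replicate 4 the differences were -0.32 for Erbb3, -0.59 for Itga4, -0.30 for Twist1 and 0.17 for Itgb3. The differences of Erbb3, Itga4, Twist1 and Itgb3 thus did not rest on that array. Without it Itga5 differed by 0.08, Tgfb2 by 0.13 and Nfatc1 by -0.09. Prrx1 differed by -0.18 without it, against -0.35 with it.

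Markers of other cell types in the same lists passed in neither tissue. In OFT-RV, 9 of 12 genes of endothelium and endocardium had lower means in mutants (median -0.06), and Cldn5, a junction protein of endothelium, had the smallest p of this list (-0.27, SE 0.06, adjusted p = 0.114). Of 10 neural crest genes 7 were lower, with a median of -0.04, and of 13 fibroblast genes 11 were lower, with a median of -0.07. Pdgfra, the receptor of mesenchymal progenitors, was among the lower fibroblast genes at -0.25 (SE 0.12, adjusted p = 0.859). Of all genes 57.1% were lower in OFT-RV. Other lists were lower too, with 10 of 10 genes of cartilage and bone, 6 of 8 of skin epidermis, 7 of 9 of immune cells and 6 of 7 neural genes (median -0.11). Smooth muscle and cardiomyocyte lists went the other way, with 7 of 9 and 7 of 12 higher. Without mutant replicate 4 the medians were -0.02 for endothelium and endocardium, -0.05 for neural crest, -0.07 for fibroblast and -0.05 for neural genes. The median of all genes was then -0.01, and 2 of 10 genes of cartilage and bone were higher. The lower direction was thus not particular to the endothelial, neural crest and fibroblast lists. These values are given beside Snai1 and Dcn, and their part in those differences was not tested. All 9 primitive erythroid genes were higher in both tissues, with medians of 0.09 in OFT-RV and 0.13 in aSHF. Of 10 stress and immediate early genes, 9 were higher in OFT-RV, with a median of 0.07.

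The genes whose values followed the mean of the 10 matrix genes most closely were found by Pearson correlation over the 8 arrays of each tissue, as a description. In OFT-RV they were Smoc2 (r = 0.986), Cbln1, Hoxb8, AU018091, Bnc1, Hoxb6, Prss35, Tmem54, Wisp1 and Sema3e (0.953). On OFT-RV mutant replicate 4 the mean of the matrix genes was 9.11, and on the other 7 arrays it was at most 7.98. Without that array the 10 closest genes were others, from Ano3 (0.956) to Naaladl2 (0.940), among them Tcf21, a gene of epicardium and cushion mesenchyme (0.943). In aSHF they were Slit2 (0.977), Frem1, Ptprd, Sestd1, Cdkal1, Moxd1, 4833420G17Rik, Mrpl24, Atrnl1 and Gm42416 (0.924). Slit2 encodes a secreted guidance protein and Frem1 a basement membrane protein. The correlated arrays share hybridisation and normalization, and the matrix genes vary little in aSHF.

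Several miRNAs are known to bind transcripts of these genes. The miR-29 family targets collagen transcripts in cardiac fibroblasts, the miR-30 family is described as a regulator of Snai1, and miR-23 is known to repress Has2 in the cushions of the zebrafish heart. Their mature sequences from RefSeq are shown for members found in the table, with the seed, bases 2 to 8, in capitals.
miR-29a-3p: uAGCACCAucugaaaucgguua
miR-29b-3p: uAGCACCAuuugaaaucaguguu
miR-29c-3p: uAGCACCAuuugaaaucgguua
miR-30a-5p: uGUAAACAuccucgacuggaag
miR-30c-5p: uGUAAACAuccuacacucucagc
miR-30e-5p: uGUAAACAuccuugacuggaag
miR-23a-3p: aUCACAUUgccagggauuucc
The members of a family share 1 seed, and the 3 families have different seeds.

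None of the 24 mature miRNAs of 7 lists passed in either tissue, by limma with adjustment over 1908 mature miRNAs. Among all of them 0.367% passed in OFT-RV and 0% in aSHF. The shares with an unadjusted p under 0.05 were 9.54% of all in OFT-RV and 5.97% in aSHF. Among the listed miRNAs in OFT-RV they were 3 of 5 miR-30, 2 of 2 miR-23, 2 of 2 miR-133 and 2 of 8 let-7 members. In aSHF they were 1 of 2 miR-133 and 1 of 8 let-7 members. The other lists had 0, and all lists were chosen with earlier results known. The miR-29 members were near the median of all mature miRNAs (0.85 in aSHF and 0.88 in OFT-RV), with wild-type means of 0.63 to 0.93 in aSHF and 0.64 to 1.11 in OFT-RV, so a loss of them was not detectable.

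In OFT-RV both miR-23 members were lower on every mutant array than on any wild-type array, as 7.08% of all mature miRNAs were. For miR-23a-3p the wild-type arrays were at 7.89, 7.94 and 7.92 and the mutant arrays at 7.62, 7.69 and 7.0, a difference of -0.48 (SE 0.18, adjusted p = 0.470). For miR-23b-3p they were at 7.68, 7.54 and 7.78 and at 7.21, 7.33 and 6.86, a difference of -0.53 (SE 0.14, adjusted p = 0.217). In aSHF the differences were -0.26 (SE 0.14) and -0.17 (SE 0.09). Has2, the gene miR-23 is known for, differed by 0.04 in OFT-RV and by -0.04 in aSHF.

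All 5 miR-30 members were lower in OFT-RV, where 51.5% of all mature miRNAs were. For miR-30b-5p the wild-type arrays were at 3.62, 3.23 and 2.30 and the mutant arrays at 2.18, 1.53 and 0.91, a difference of -1.51 (SE 0.41, adjusted p = 0.231). The differences were -1.21 (SE 0.41) for miR-30d-5p, -0.85 (SE 0.34) for miR-30c-5p, -0.67 (SE 0.30) for miR-30a-5p and -0.35 (SE 0.18) for miR-30e-5p. In aSHF 4 of the 5 were lower, with a median of -0.25, where 52.7% of all were lower. Snai1, the gene this family is known for, differed by -0.21 in OFT-RV.

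**Figure D5:**
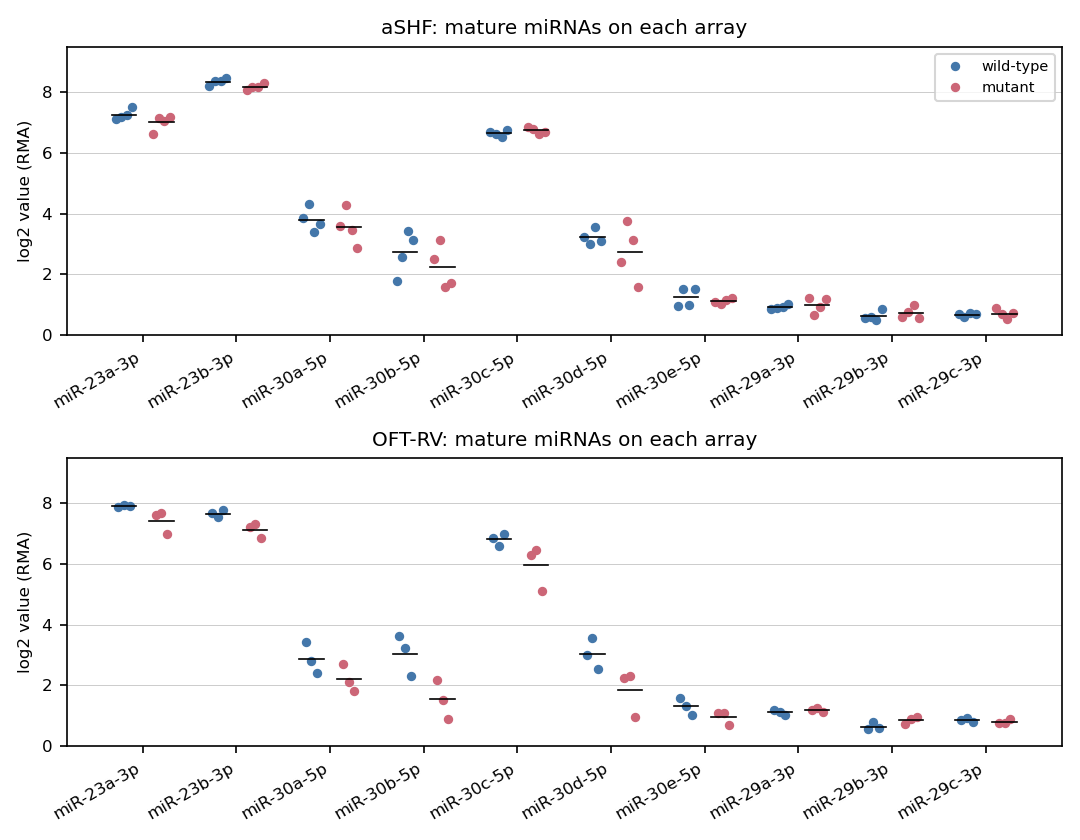
Log2 values (RMA) of miR-23, miR-30 and miR-29 members on each miRNA array, aSHF in the upper panel with 4 arrays a genotype and OFT-RV in the lower with 3, with wild-type in blue, mutant in red and bars at the means. In OFT-RV the red points of miR-23a-3p, miR-23b-3p, miR-30b-5p, miR-30c-5p and miR-30d-5p all lie below the blue ones, and miR-29 members stay near 1 on all arrays.

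The other lists were read in the same way. In OFT-RV both miR-133 members were lower, with a median of -0.54, miR-199a-3p differed by -0.67 (SE 0.51), the 3 miR-34 members by -0.34 to -0.04, and 6 of 8 let-7 members were lower with a median of -0.35. In aSHF the medians were -0.39 for miR-133, -0.14 for miR-199a-3p, -0.03 for miR-34 and -0.26 for let-7. Within let-7, let-7e-5p was lower on every mutant array than on any wild-type array in both tissues, as 2.78% of all mature miRNAs were in aSHF. It differed by -0.69 (SE 0.13, adjusted p = 0.170) in aSHF and by -1.09 (SE 0.41, adjusted p = 0.458) in OFT-RV. No OFT-RV miRNA array carries the replicate number 4, so the array with high Lum, Postn and Dcn has no miRNA array of its number.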

How the data were processed

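RNA of pooled tissue was measured on 16 mRNA and 14 miRNA arrays. The deposited array values are log2 values. Per the submitters' processing notes the authors used RMA and the package oligo, with versions not given in the sources used here. Per the file headers, the comparison tables of the authors hold log2 changes, p-values and adjusted p-values. Probe sets carry numbers only, so each listed gene was matched to the probe set with an equal mean in both tissues within 1e-06, which placed all 20889. After 45 genes sharing a probe set and 2 second listings were left out, 20842 remained. The 30 value columns of 4 further tables match no sample label by name and were not used.

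Each tissue was fitted with limma 3.58.1 in R 4.3.3 (lmFit and eBayes, genotype as the only term), with Benjamini-Hochberg adjustment over all 20842 genes or 1908 mature miRNAs, and an adjusted p under 0.05 passed. The fit was tested on simulated data with 200 changed genes. SE is the moderated standard error. Single genes were also tested by exact two-sided permutation over 70 divisions of 8 arrays with Python 3.11.15. The p-values measure the spread between pools. Gene and miRNA names follow RefSeq, GRCm38.p6, where promoters and mature sequences are printed.

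All 10 matrix genes are named. Genes named from other lists for their change were among the 4 of smallest p in the list, and not always all 4 are named. Also named are the 20 largest rises and 10 largest falls on the array that stood apart. The 10 genes of closest correlation in each tissue and the listed miRNAs are named too. The members, the 18 other gene lists and the 7 miRNA lists were chosen with earlier results of these data known. Replicate numbers were not found to pair mutant with wild-type arrays. Correlations of deviations between same-numbered mutant and wild-type arrays were -0.09 to 0.67 in aSHF (mean 0.22) and 0.02 to 0.24 in OFT-RV (mean 0.11). Between same-numbered arrays of both tissues they were 0.08 to 0.33 in mutants (mean 0.15) and -0.18 to 0.55 in the wild type (mean 0.18). Differently numbered arrays had means of -0.07, -0.04, -0.05 and -0.06 in the same order, with ranges that overlapped those of same-numbered arrays. Alternatives were leaving out each array, a replicate block, array weights, a common quantile normalization, leaving out dim probe sets and, added after the data were seen, robust regression.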

Additional observations from a re-analysis of the deposited data

Results flagged for a closer look

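The 10 matrix genes and Dgcr8 gave 44 groups of 4 arrays. In 6 of them an array's distance to the nearest other array, as a share of the whole range, exceeded Dixon's 95% critical value. This value served only as a flag. The groups share the same 16 arrays, and OFT-RV mutant replicate 4 was known beforehand to stand apart, so the count is not a test. Of the 6, 4 were on OFT-RV mutant replicate 4, which was the highest of its group at 8.92 for Lum, 9.48 for Postn, 8.48 for Dcn and 8.48 for Col1a2. Fibronectin (Fn1) was highest on OFT-RV mutant replicate 2, at 11.88, although its 4 mutant arrays spanned only 11.81 to 11.88. Col3a1 was lowest on OFT-RV wild-type replicate 1, at 7.69, below 7.89 to 7.92 on the others. No matrix gene differed between the tissues in its mutant change by the test of that difference.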

How the results depend on the processing

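No matrix gene passed under any alternative run. Precision is limited by 4 pools a group, and Lum, Dcn and Postn lie below the array medians on most OFT-RV arrays. For all genes, the count that passed in aSHF was 37 and became 14 with dim probe sets left out and 60 with array weights, and 19 to 43 when each array was left out, with 21 without wild-type replicate 3 and 19 without wild-type replicate 4. In OFT-RV it was 93 and became 54 with dim probe sets left out, which is a test of fewer genes that holds no Lum, Dcn or Postn, 149 with robust regression, which gives an array that differs less weight, and 77 to 88 when each array was left out. For the difference between tissues it was 44, and 22 with dim probe sets left out. The cause of the other shifts was not tested.

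Directions turned as follows. With array weights, in aSHF Has2 became 0.0117 and Snai1 0.0374, and in OFT-RV Col3a1 became -0.0133. With robust regression in OFT-RV, Dcn became -0.25, Postn -0.0405, Col1a2 -0.0636 and Col3a1 -0.0705. With quantile normalization over all 16 arrays, Col3a1 in OFT-RV became -0.00541 and the tissue difference of Fn1 -0.00877. Leaving out each array gave in OFT-RV -0.43 to 0.63 for Dcn, -0.12 to 1.24 for Postn, -0.0337 to 0.25 for Col1a1, -0.12 to 0.13 for Col1a2, -0.0749 to 0.0558 for Col3a1 and -0.0582 to 0.13 for Has2. In aSHF it gave -0.28 to 0.0496 for Postn, -0.00528 to 0.0871 for Col1a1, -0.000293 to 0.0398 for Fn1, -0.084 to 0.000473 for Has2 and -0.0567 to 0.0121 for Snai1. For the tissue difference it gave -0.23 to 0.83 for Dcn, -0.0289 to 1.34 for Postn, -0.0831 to 0.20 for Col1a1, -0.0841 to 0.17 for Col1a2, -0.0022 to 0.0379 for Fn1 and -0.0151 to 0.17 for Has2. Lum in OFT-RV ranged from 0.0798 to 1.63 and kept its sign.

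For the miRNAs, 7 passed in OFT-RV and 1 to 9 when each array was left out, with 1 without any of the wild-type arrays and 3 without mutant replicate 2. In aSHF 0 passed, and 0 to 2, with 2 without mutant replicate 2. Of the listed miRNAs 1 passed with a replicate block in OFT-RV, miR-30b-5p at -1.51 (adjusted p = 0.0187, range over its alternatives 0.0187 to 0.579). Correlations of same-numbered arrays did not show that numbers pair mutant with wild-type arrays, and with the block the other 23 listed miRNAs, and the 10 matrix genes in both tissues, stayed short of the threshold. The count of all genes with the block was 51 in aSHF and 95 in OFT-RV. Leaving out each array turned the sign of dim miRNAs. In aSHF it gave -0.0274 to 0.0986 for miR-29c-3p, -0.14 to 0.0213 for miR-34a-5p, -0.0227 to 0.0263 for miR-34b-5p and -0.13 to 0.34 for let-7i-5p. In OFT-RV it gave -0.12 to 0.091 for miR-34b-5p, -0.0201 to 0.30 for let-7b-5p, -0.94 to 0.18 for let-7c-5p and -0.23 to 0.24 for let-7i-5p. The mean deviation of the 10 matrix genes on OFT-RV mutant replicate 4 was 1.30, and 1.27 to 1.29 with median centring or with the mean of the other arrays.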
